A study of Homo sapiens with 4 samples.

Results

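The axon guidance genes of the Eph and ephrin, semaphorin and plexin, netrin and Slit families were followed after knockdown of YEATS2 in BICR10 cells. They were taken from the count files by gene symbol: every numbered Eph receptor, ephrin, class 3 to 7 semaphorin and plexin, and in addition NRP1, NRP2, SLIT2, SLIT3, ROBO1, ROBO2, NTN1, NTN4 and UNC5B. This rule reads gene symbols only and gave 60 of the 60623 genes in the files. It was set with earlier results of these data known, so the choice of genes was not blind to them. They comprised 14 Eph receptors, 8 ephrins, 7 class 3 semaphorins, 13 semaphorins of classes 4 to 7, 9 plexins, 2 neuropilins, 4 Slits and Robos, and the group of 3 formed by NTN1, NTN4 and UNC5B.

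BICR10 is an established human head and neck cancer cell line. RNA-seq was made from cells transduced by lentivirus with a control hairpin (shControl) or with a hairpin against YEATS2 (shYEATS2), with 2 libraries per condition and no other cell line. The study asked which genes depend on YEATS2, a protein that reads crotonylated histone H3. The study lists a pair of YEATS2 hairpins, and which of them each shYEATS2 library carried is not given in the sources used here. The study describes its replicates as biological, and whether the RNA-seq libraries of a condition came from separate transductions or cultures is not given in the sources used here. The p-values measure the spread between these libraries.

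Guidance genes were first described in growing axons, where a ligand on one cell or in the matrix attracts or repels the tip of another. Ephrins are bound to the membrane and act on Eph receptor tyrosine kinases of a neighbouring cell, and they also signal back into the cell that carries them. Semaphorins act through plexins, and most secreted class 3 semaphorins need a neuropilin as co-receptor. Netrins act through receptors that include the UNC5 family, and Slits act through Robo receptors. In epithelial tumours and vessels these families are known for cell sorting, contact repulsion, migration and vessel growth.

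The 250 bases upstream of the RefSeq start site are shown for 6 members, so that the starts of genes that changed in opposite directions can be read side by side. They had the 3 largest changes in each direction among the named members whose RefSeq and GENCODE starts lie within 30 bases of each other. SEMA7A, SLIT2 and EPHA2 were higher in shYEATS2, and EPHA3, SEMA5A and SEMA4F were lower. SEMA7A was the one member on the study's list of genes with a YEATS2 peak at the promoter. The sequences are from RefSeq on GRCh38.p14 and are written 5′ to 3′ on the strand of the gene. Capitals mark the GC box, GGGCGG on either strand.
SEMA7A, chr15:74433959-74434208, minus strand: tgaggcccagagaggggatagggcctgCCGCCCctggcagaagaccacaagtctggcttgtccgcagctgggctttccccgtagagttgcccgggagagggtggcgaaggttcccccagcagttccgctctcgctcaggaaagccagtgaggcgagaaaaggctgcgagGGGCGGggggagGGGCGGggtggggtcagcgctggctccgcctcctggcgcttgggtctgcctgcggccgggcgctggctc
SLIT2, chr4:20251655-20251904, plus strand: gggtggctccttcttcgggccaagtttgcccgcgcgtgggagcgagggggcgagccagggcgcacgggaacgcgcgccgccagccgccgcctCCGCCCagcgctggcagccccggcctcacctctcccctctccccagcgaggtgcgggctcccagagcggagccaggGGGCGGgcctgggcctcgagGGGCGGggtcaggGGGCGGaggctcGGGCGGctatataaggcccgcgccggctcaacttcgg
EPHA2, chr1:16156070-16156319, minus strand: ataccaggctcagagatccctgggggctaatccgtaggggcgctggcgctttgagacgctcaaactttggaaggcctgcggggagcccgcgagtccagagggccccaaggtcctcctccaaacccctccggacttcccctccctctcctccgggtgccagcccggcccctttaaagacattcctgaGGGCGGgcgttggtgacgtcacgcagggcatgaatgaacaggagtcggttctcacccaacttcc
EPHA3, chr3:89107371-89107620, plus strand: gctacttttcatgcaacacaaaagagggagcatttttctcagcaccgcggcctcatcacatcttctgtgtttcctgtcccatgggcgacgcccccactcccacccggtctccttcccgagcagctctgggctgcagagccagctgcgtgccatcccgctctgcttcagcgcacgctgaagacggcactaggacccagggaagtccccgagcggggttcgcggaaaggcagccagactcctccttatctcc
SEMA5A, chr5:9546076-9546325, minus strand: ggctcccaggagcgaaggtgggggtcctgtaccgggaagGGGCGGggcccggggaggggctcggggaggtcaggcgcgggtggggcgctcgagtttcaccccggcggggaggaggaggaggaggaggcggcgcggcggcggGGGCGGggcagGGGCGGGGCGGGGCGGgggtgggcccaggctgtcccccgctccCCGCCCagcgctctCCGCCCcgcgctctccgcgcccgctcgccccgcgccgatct
SEMA4F, chr2:74653997-74654246, plus strand: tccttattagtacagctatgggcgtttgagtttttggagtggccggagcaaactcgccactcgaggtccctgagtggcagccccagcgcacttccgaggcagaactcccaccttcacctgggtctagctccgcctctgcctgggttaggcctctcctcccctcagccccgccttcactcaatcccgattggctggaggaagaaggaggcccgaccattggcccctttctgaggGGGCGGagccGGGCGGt
The number of GC boxes, with overlapping matches counted, was 3 for SEMA7A, 5 for SLIT2, 1 for EPHA2, 0 for EPHA3, 7 for SEMA5A and 2 for SEMA4F. Windows rich in GC boxes thus stood beside genes of both directions.

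A window of this kind was found for 52 of the 60 members. NRP1, EPHA10, EFNB3, NTN1, SEMA3A, SEMA6A, UNC5B and SEMA6B had none. The GC box was found in 38 of the 52, against 42.3% of 27305 promoters, and in 15 of the 21 members with lower mRNA and 7 of the 11 with higher mRNA. The median GC content was 64.4% in members and 58% in all promoters. The CCAAT box, CCAAT on either strand, was in 18 of the 52 members, against 33.0% of all promoters. It was in 9 of the 21 lower members and in 0 of the 11 higher members that had a window. UNC5B, NRP1, SEMA3A and SEMA6B, also called higher, had no window and are not in that count. The AP-1 motif TGANTCA was in 1 of the 52 (6.60% of all promoters) and the CRE motif TGACGTCA in 2, EPHA2 among the windows shown (1.77% of all promoters). These matches describe the letters of the windows and carry no test.

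Totals of counts on genes were 47297970 and 39824898 in shControl and 24072396 and 11334133 in shYEATS2, so depth was lower in both knockdown libraries and cannot be told apart from the condition. YEATS2 itself was at 66.1 and 66.7 CPM (counts scaled by library total and TMM) in shControl and 29.2 and 29.1 CPM in shYEATS2. Its log2 fold change was −1.19 (SE 0.08, adjusted p = 3.55e-21, edgeR quasi-likelihood test). The 10 squamous epithelial markers gave a mixed picture, with 4 of the 8 tested lower and 2 higher. TP63, between 0 and 0.255 CPM, and KRT17, between 0 and 0.397 CPM, were too low to be tested. KRT6A fell from 55.0 and 58.2 CPM to 1.38 and 2.21 CPM (log2 fold change −5.09, adjusted p = 1.17e-41) and KRT5 from 16.4 and 15.0 CPM to 1.03 and 1.36 CPM (−3.78, adjusted p = 5.26e-28). KRT14 (−2.31) and EPCAM (−1.07) fell from levels near 1 CPM, while CDH1 rose from 0.353 and 0.318 CPM to 2.84 and 2.12 CPM (2.91) and PERP rose by 0.19 on the log2 scale. SFN and PERP made up most of the list's sum, 310 and 329 CPM in shControl and 273 and 263 CPM in shYEATS2. The 10 fibroblast markers summed to 7547 and 7461 CPM in shControl and 2424 and 2289 CPM in shYEATS2, with 8 of the 9 tested lower and 0 higher. COL1A1, COL1A2 and COL3A1 made up most of that sum. Within shControl the fibroblast sum was thus far above the squamous sum, and the reason was not tested. FAP was not called (log2 fold change −0.11), and THY1, with at most 13 counts in any library, was too low to be tested. Of all tested genes, 23.6% were lower and 22.6% higher at the same threshold. Of the endothelial markers, CDH5, CLDN5 and TIE1 had at most 1 count in any library. KDR fell, TEK rose with at most 9 counts in any library, PECAM1 was not called, and KDR made up most of the list's 35.8 and 36.7 CPM in shControl and 19.1 and 20.4 CPM in shYEATS2. The neural list went from 77.2 and 76.0 CPM to 135 and 142 CPM, most of it MAP2, with 4 of the 5 tested higher and 0 lower. MAP2 (log2 fold change 0.80), SYT1 (1.43), NCAM1 (1.75) and GAP43 (2.67, from 3 counts in each control) were higher, TUBB3 was not called, and RBFOX3 had at most 4 counts, SOX10 at most 3 and SNAP25 0. These lists moved with the condition beside every gene group below, and their part in the results was not tested. Fewer cells of a type and less RNA per cell cannot be told apart in such libraries.

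Of the 60 guidance genes, 48 had enough counts for the test, a filter near 0.313 CPM in at least 2 libraries. In shYEATS2, 21 of the 48 (43.8%) were lower and 15 (31.3%) were higher at an adjusted p under 0.05 (edgeR, quasi-likelihood). The same rule, applied to the 17058 genes that could be tested, called 23.6% lower and 22.6% higher, or 46.2% in either direction. In the groups added by name (neuropilins, Slits and Robos, netrins and UNC5B), 100% of the tested members were called. The set was chosen with earlier results known, so the member shares are not independent of that choice. A change of at least 2-fold as well was met by 8 lower and 8 higher of the 48 members, where all genes gave 3.70% lower and 5.99% higher. EPHA5, EFNA2 and SEMA3G among these lower members, and SEMA3D among the higher, met the filter only through the condition where they were higher. The filter thus favoured their direction. Taken without its sign, the log2 fold change had a median of 0.64 in the members and 0.31 in all tested genes. With its sign, the medians were −0.17 and −0.01, so the members moved in both directions.

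Not all members could have been called. The 12 untested members were SEMA4A, SEMA5B, SEMA6A, EPHA7, EPHA8, EPHA10, EPHB1, EPHB3, EFNB3, NTN1, PLXNA4 and ROBO2, with 0 to 27 counts over the 4 libraries together. The filter was met through shControl alone by SEMA3G, SEMA4G, EPHA5, EFNA2 and PLXNC1, and through shYEATS2 alone by SEMA3D. For these 6 the filter favoured a higher level in the condition that met it. SEMA4G did not differ in that direction (log2 fold change 0.10, not called). The 42 members that met it in each condition held 18 lower and 14 higher calls. The knockdown libraries were both under the pair of controls in 24 of the 48 members and both over it in 16, against 36.3% and 35.3% of all tested genes. With DESeq2, 14 members were lower and 10 were higher, against 15.9% and 13.4% of the 17811 genes it tested.

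**Figure D1:**
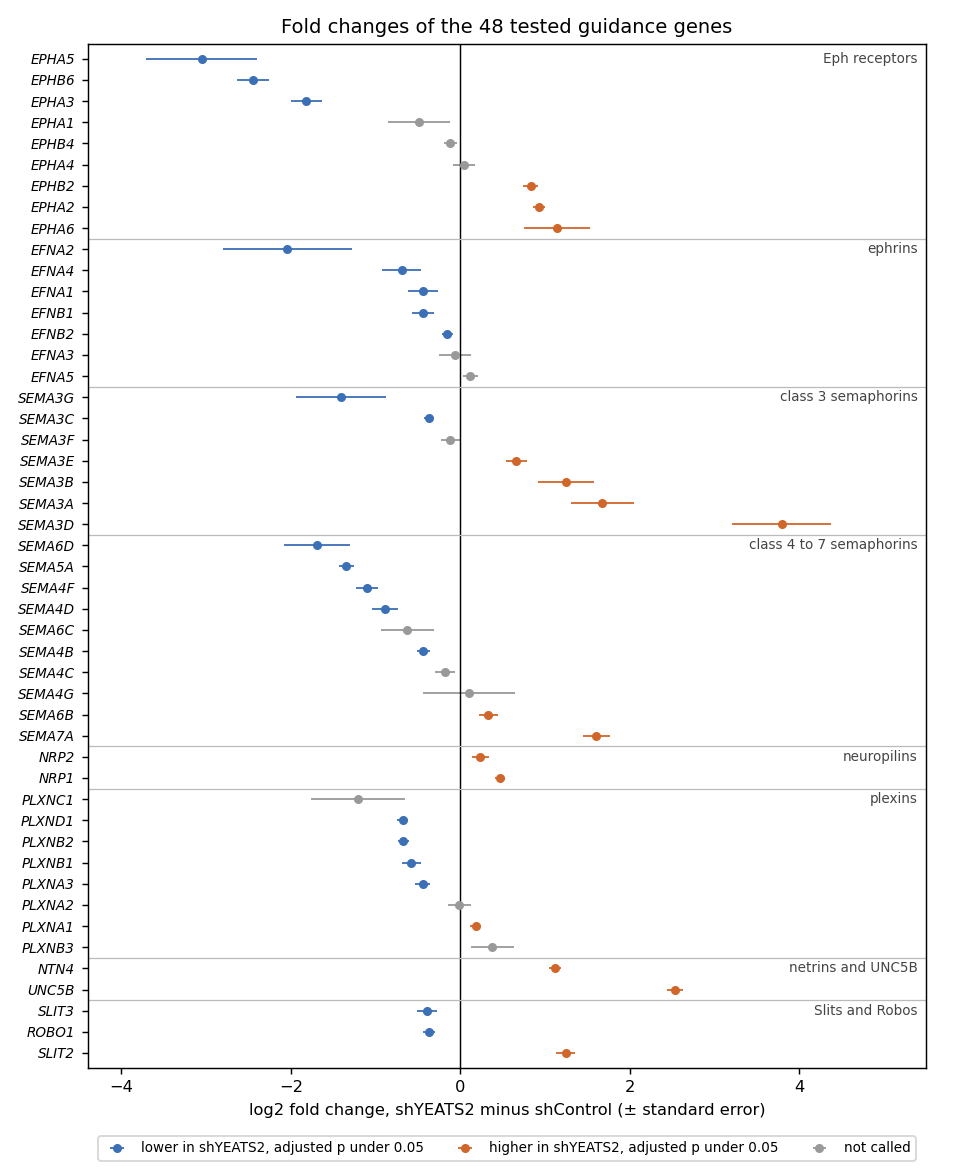
The horizontal axis is the log2 fold change of shYEATS2 against shControl and each point is 1 of the 48 tested guidance genes, with its standard error as the bar and the families one below another. Blue points are the 21 lower genes, orange points the 15 higher genes and grey points the 12 without a call, and the farthest points are EPHA5 at −3.05 and SEMA3D at 3.79, both with few counts in 1 condition.

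Levels differed widely between members. Per kilobase of exon, the 8 highest in shControl were SEMA3C at 34.6 CPM per kb, EFNB2 at 32.9, NRP1 at 32.2, PLXNB2 at 21.6, PLXND1 at 15.8, EPHA2 at 10.3, PLXNA1 at 9.95 and NTN4 at 9.21. SEMA3C, EFNB2 and NRP1 stood close to one another, with SDs of 0.504, 1.21 and 0.778 between the 2 libraries. The cells thus carried a secreted semaphorin, its class of co-receptor, 3 plexins, an ephrin-B, an Eph receptor and a netrin at appreciable mRNA levels. In shYEATS2, SEMA3C stood at 26.8, EFNB2 at 29.6 and NRP1 at 44.5 CPM per kb, so NRP1 was then the highest of the 3.

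**Figure D2:**
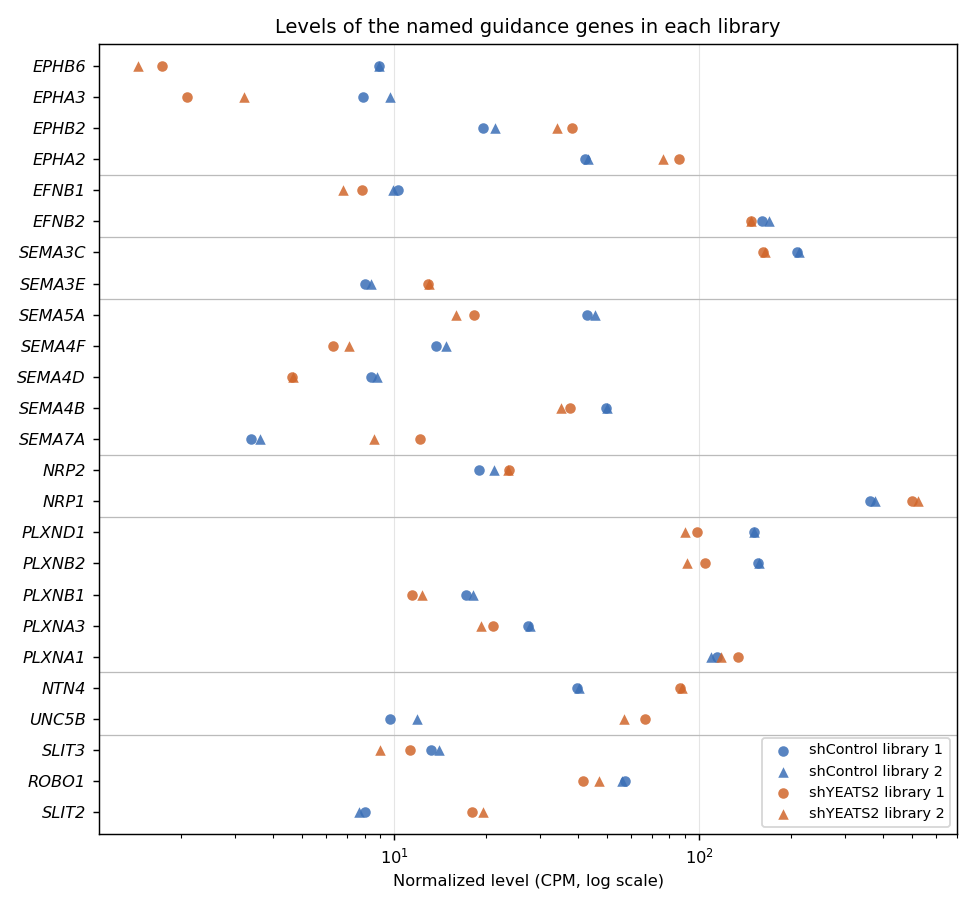
Each row is 1 of the 25 called members whose mean was 5 CPM or more and whose conditions do not overlap, and each point is 1 library on a log axis of CPM (blue for shControl, orange for shYEATS2). NRP1 lies farthest to the right, between 365 and 524 CPM, and UNC5B, with controls at 9.70 and 11.9 and knockdown libraries at 66.6 and 56.8 CPM, has the largest fold change.

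Among the Eph receptors, 3 of the 9 tested fell and 3 rose (33.3% each, against 23.6% and 22.6% of all tested genes). The median change was −0.12 on the log2 scale. EPHA5, among the receptors that fell, met the filter through shControl alone. EPHB6, an Eph receptor whose kinase domain lacks catalytic activity (ENSG00000106123, GRCh38 chr7:142855061-142871094, plus strand), was at 8.93 and 8.94 CPM in shControl and 1.74 and 1.44 CPM in shYEATS2. Both knockdown libraries were far below both controls, with a log2 fold change of −2.45 (SE 0.19, adjusted p = 8.55e-18). EPHA3, a receptor for ephrin-A ligands (ENSG00000044524, chr3:89107621-89482134, plus strand), was at 7.94 and 9.69 CPM in shControl and 2.09 and 3.22 CPM in shYEATS2. Its replicates spread more than those of EPHB6, but the conditions did not overlap (log2 fold change −1.82, SE 0.18, adjusted p = 6.42e-13).

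EPHA5, another receptor of the A class, had 43 and 33 counts in shControl and 4 and 0 counts in shYEATS2. The fitted log2 fold change of −3.05 (SE 0.65, adjusted p = 7.54e-05) rests on those few counts, and without shYEATS2 1 it was −7.86, fitted against a library with 0 counts. Its antisense partner EPHA5-AS1 had 47, 30, 6 and 3 counts in the same order of libraries. The kit marks strand but the strand setting of the counting is not given, so the reads of the pair may not have been kept apart.

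EPHA2 and EPHB2 went the other way. EPHA2, an ephrin-A receptor common in epithelia and carcinomas (ENSG00000142627, chr1:16124337-16156069, minus strand), was at 42.4 and 43.3 CPM in shControl and 86.1 and 76.1 CPM in shYEATS2. Both knockdown libraries were far above both controls, a fold of 1.91 (log2 fold change 0.93, SE 0.07, adjusted p = 6.92e-18). EPHB2, a receptor for ephrin-B ligands (ENSG00000133216, chr1:22710839-22921500, plus strand), was at 19.6 and 21.5 CPM in shControl and 38.2 and 34.3 CPM in shYEATS2, with a log2 fold change of 0.83 (SE 0.09, adjusted p = 2.07e-12). EPHA6 was low throughout, at 0.551 and 0.662 CPM against 1.54 and 1.02 CPM, and passed with an adjusted p of 0.0126. That call was lost without shControl 1 (log2 fold change 1.01) or shYEATS2 1 (0.74).

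EPHB4, the receptor that pairs with EFNB2 in vessels, had 54.7 and 52.4 CPM in shControl and 51.9 and 45.9 CPM in shYEATS2. The difference missed the threshold (log2 fold change −0.12, SE 0.08, adjusted p = 0.196), although it passed without shYEATS2 1 (−0.24). EPHA4, which binds ligands of both classes, was at 8.84 and 8.89 CPM in shControl and 8.80 and 9.67 CPM in shYEATS2, with overlapping conditions and an adjusted p of 0.81. EPHA1 was low and not called (adjusted p = 0.291). EPHB4 shares exonic sequence with SLC12A9 and EPHA1 with ZYX, each on the opposite strand.

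The make-up of the receptor set moved with these genes. Summed over the 14 Eph receptors, the level was 24.8 and 25.2 CPM per kb in shControl and 34.1 and 30.5 in shYEATS2. EPHA2 made up 41.3% and 41.5% of that sum in shControl and 61.0% and 60.2% in shYEATS2. EPHB6 went from 6.77% and 6.67% to 0.956% and 0.887%, and EPHA3 from 4.87% and 5.85% to 0.933% and 1.61%. EPHB4 had 34.3% and 32.3% in shControl and 23.7% and 23.4% in shYEATS2, although its own level did not pass the test. These shares describe the sums and have no test of their own.

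**Figure D3:**
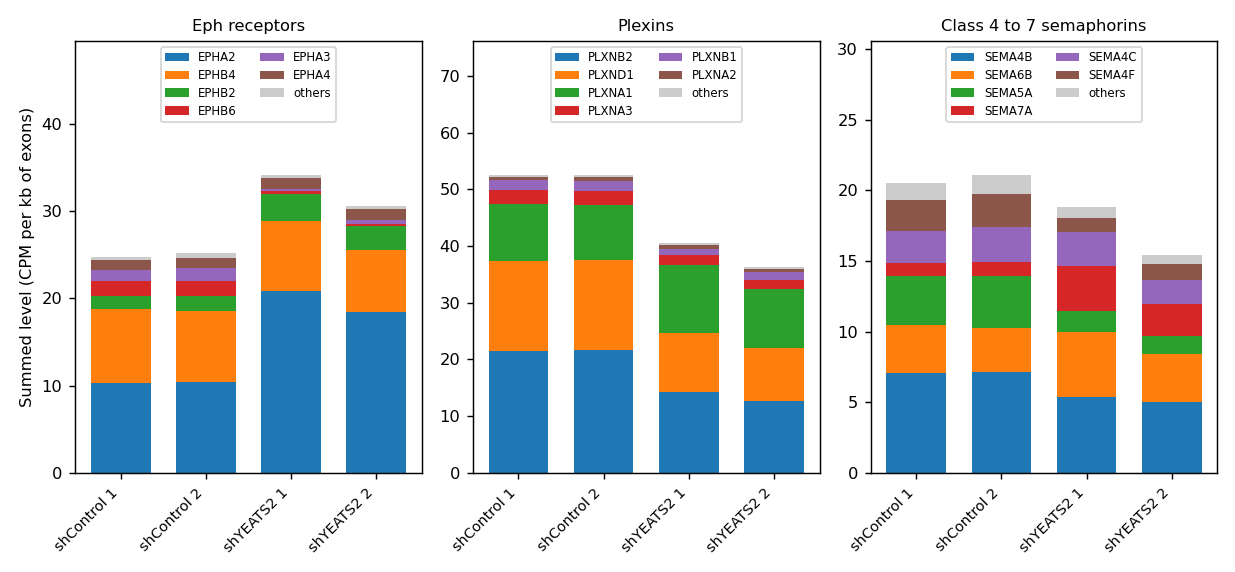
Stacked bars give the summed level (CPM per kb of exons) of the Eph receptors, the plexins and the class 4 to 7 semaphorins in each of the 4 libraries, with the 6 genes of largest share coloured and the others in grey. The Eph receptor bars are higher in shYEATS2 (34.1 and 30.5) than in shControl (24.8 and 25.2) with a larger EPHA2 segment, and the plexin bars are lower (40.5 and 36.3 against 52.5 and 52.5) with smaller PLXNB2 and PLXND1 segments.

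The ephrins, the ligands of these receptors, gave 5 lower and 0 higher calls among 7 tested. That was 71.4% and 0%, against 23.6% and 22.6% of all tested genes. EFNA2, among the lower ephrins, met the filter through shControl alone. The median of the ephrins was −0.44 on the log2 scale, but the changes were small or the genes low. EFNB2, the main ephrin in these cells (ENSG00000125266, chr13:106489745-106535662, minus strand), was at 160 and 169 CPM in shControl and 148 and 148 CPM in shYEATS2. It fell by 0.15 on the log2 scale (SE 0.06, adjusted p = 0.0354), and scaling by library totals alone moved that to −0.019 and ended the call. It also lost the call without shControl 1 (−0.20) or shControl 2 (−0.12). EFNB1, another ephrin-B, was at 10.3 and 9.92 CPM in shControl and 7.86 and 6.79 CPM in shYEATS2 (log2 fold change −0.44, SE 0.13, adjusted p = 0.00487), and was not called without shControl 1 (−0.42). EFNA1, a ligand of EPHA2, was at 5.25 and 5.29 CPM in shControl and 3.91 and 3.82 CPM in shYEATS2, with the same log2 fold change of −0.44 and an adjusted p of 0.0345. Its call was lost whichever of the 4 libraries was left out, with changes of −0.48 to −0.44. DESeq2 called 0 of the 7 ephrins, edgeR called 0 lower without shControl 1 and 2 without shControl 2 or shYEATS2 1, and library totals alone left 1 lower and 1 higher, EFNA5.

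EFNA4 differed between its control libraries, at 5.18 and 3.07 CPM, and was at 2.49 and 2.72 CPM in shYEATS2. Its log2 fold change of −0.69 (SE 0.23, adjusted p = 0.0105) became −0.26 without shControl 1 and −0.63 without shYEATS2 1, and was then not called. EFNA2 was near the filter, at 0.353 and 0.582 CPM against 0.0789 and 0.170 CPM (adjusted p = 0.0233), with no call without shControl 1 (−2.37) or shYEATS2 1 (−1.44). EFNA3 (adjusted p = 0.804) and EFNA5 (adjusted p = 0.275) were not called. EFNA4, EFNA3 and EFNA1 lie one after another on chromosome 1 with starts 15.1 and 49.0 kb apart, and the readthrough transcript annotated across EFNA4 and EFNA3 had 0 counts. The summed level of the ephrins was 48.7 and 48.6 CPM per kb in shControl and 42.8 and 42.8 in shYEATS2.

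The secreted class 3 semaphorins split, with 2 lower and 4 higher calls among 7. These were 28.6% and 57.1%, against 23.6% and 22.6% of all tested genes. SEMA3G (lower) and SEMA3D (higher) are in these counts, and each met the filter only through the condition where it was higher. SEMA3C, by far the main member (ENSG00000075223, chr7:80742538-80922359, minus strand), was at 209 and 213 CPM in shControl and 162 and 165 CPM in shYEATS2. The replicates lay close together and the log2 fold change was −0.37 (SE 0.06, adjusted p = 5.77e-07). SEMA3C made up 88.1% and 88.0% of the class in shControl and 82.3% and 84.9% in shYEATS2. SEMA3E, which can signal through PLXND1 without a neuropilin, went the other way, from 8.02 and 8.39 CPM to 12.9 and 13.0 CPM (log2 fold change 0.66, SE 0.12, adjusted p = 6.53e-06).

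The other class 3 members were low or were not called. SEMA3A, the classic repellent of sensory axons, was at 0.639 and 0.450 CPM in shControl and 1.54 and 2.12 CPM in shYEATS2 (log2 fold change 1.68, adjusted p = 0.000139). SEMA3B was at 1.06 and 0.609 CPM in shControl and 2.05 and 1.95 CPM in shYEATS2 (log2 fold change 1.25, adjusted p = 0.00109). SEMA3D had 3 and 4 counts in shControl and 33 and 13 counts in shYEATS2, a fitted log2 fold change of 3.79 (SE 0.58) that leans on the low control counts. SEMA3G fell from 0.661 and 0.926 CPM to 0.316 and 0.255 CPM (log2 fold change −1.41, adjusted p = 0.0243), and lost its call without shControl 2 (−1.16), shYEATS2 1 (−1.63) or shYEATS2 2 (−1.31). SEMA3F, at 16.0 and 16.4 CPM against 16.7 and 12.1 CPM, had overlapping conditions and an adjusted p of 0.403, and was called lower without shYEATS2 1 (−0.43).

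SEMA3C, SEMA3E, SEMA3A and SEMA3D lie in that order on the minus strand of chromosome 7, with their start sites within 4265 kb. SEMA3C fell while the other 3 rose, so members of 1 class on the same strand of this stretch moved in opposite directions. The start of SEMA3E is 2727 kb from that of SEMA3C, and those of SEMA3A and SEMA3D are 3570 and 4265 kb from it.

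**Figure D4:**
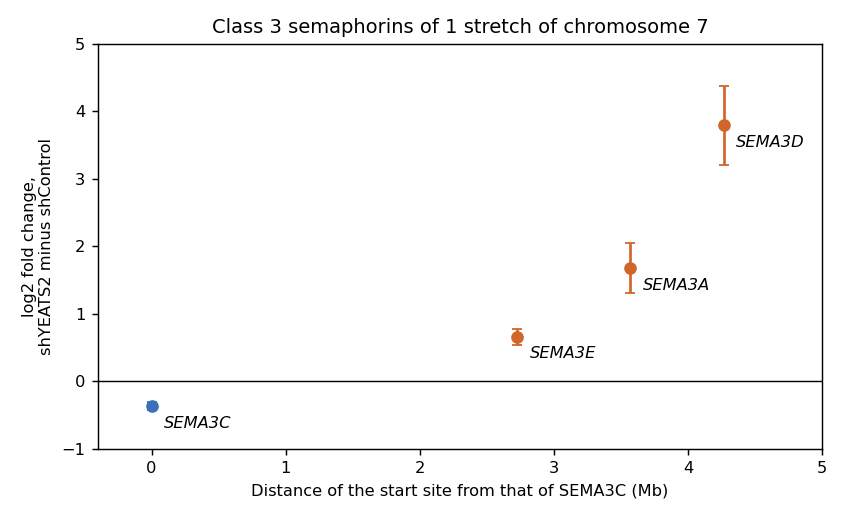
The horizontal axis is the distance of each start site from that of SEMA3C in Mb and the vertical axis the log2 fold change of shYEATS2 against shControl, with standard errors as bars. SEMA3C lies at −0.37, SEMA3E at 0.66, SEMA3A at 1.68 and SEMA3D at 3.79, the last with the fewest counts.

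The semaphorins of classes 4 to 7, most of them anchored in the membrane, gave 5 lower and 2 higher calls among 10 tested. Their shares were 50% and 20%, against 23.6% and 22.6% of all tested genes, and their median change was −0.53 on the log2 scale. SEMA5A, a transmembrane semaphorin with thrombospondin repeats (ENSG00000112902, chr5:9035033-9546075, minus strand), was at 42.8 and 45.6 CPM in shControl and 18.3 and 16.0 CPM in shYEATS2. The knockdown libraries kept 39.3% of the control level (log2 fold change −1.35, SE 0.09, adjusted p = 1.01e-20). SEMA4F (ENSG00000135622, chr2:74654228-74683853, plus strand) was at 13.7 and 14.8 CPM in shControl and 6.32 and 7.13 CPM in shYEATS2 (log2 fold change −1.10, SE 0.13, adjusted p = 4.37e-11). SEMA4D, the ligand of PLXNB1, was at 8.42 and 8.79 CPM in shControl and 4.62 and 4.67 CPM in shYEATS2 (log2 fold change −0.89, SE 0.15, adjusted p = 1.35e-06).

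SEMA4B was at 49.5 and 49.9 CPM in shControl and 37.8 and 35.2 CPM in shYEATS2 (log2 fold change −0.44, SE 0.08, adjusted p = 3.12e-06). SEMA6D fell from 1.50 and 1.67 CPM to 0.474 and 0.509 CPM (log2 fold change −1.69, adjusted p = 0.000228), and with counts thinned to the smallest library it was −1.04 and not called. SEMA7A stood apart from these genes. This semaphorin with a GPI anchor (ENSG00000138623, chr15:74409289-74433958, minus strand) was at 3.40 and 3.63 CPM in shControl and 12.1 and 8.57 CPM in shYEATS2. The knockdown libraries differed from each other but both were above both controls, a fold of 3.04 (log2 fold change 1.60, SE 0.16, adjusted p = 1.52e-13). Its share of the summed class 4 to 7 level went from 4.36% and 4.53% to 16.9% and 14.6%.

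SEMA6B rose by the test, at 15.9 and 14.6 CPM against 21.6 and 15.9 CPM, but its conditions overlapped and the call rested on shYEATS2 1, without which the log2 fold change of 0.33 became 0.039. It was also lost without shControl 2 (0.26). SEMA4C (adjusted p = 0.203), SEMA6C (adjusted p = 0.0987) and SEMA4G (adjusted p = 0.898) were not called. SEMA4C passed without shYEATS2 1 (−0.52) and SEMA6C without shControl 1 (−0.88), and SEMA4G shares exonic sequence with MRPL43 on the opposite strand. SEMA3C and SEMA5A were on the study's list of genes that lost H3K27 crotonylation and fell. That list was chosen partly on these libraries and is not independent evidence of their direction.

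Neuropilins are the ligand-binding co-receptors of class 3 semaphorins and also bind VEGF. Both rose. NRP1 (ENSG00000099250, chr10:33177492-33336262, minus strand) was at 365 and 377 CPM in shControl and 501 and 524 CPM in shYEATS2. The gap between conditions was far wider than that between replicates (log2 fold change 0.47, SE 0.06, adjusted p = 3.96e-10). NRP2 was at 19.0 and 21.3 CPM in shControl and 23.8 and 23.7 CPM in shYEATS2, a log2 fold change of 0.24 with an adjusted p of 0.0351. DESeq2 did not call it, nor did edgeR without shControl 1 (0.15), shControl 2 (0.31) or shYEATS2 1 (0.22).

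Plexins, the signalling receptors of semaphorins, fell in 4 of 8 tested cases and rose in 1. As shares these were 50% and 12.5%, against 23.6% and 22.6% of all tested genes. PLXNB2 (ENSG00000196576, chr22:50274979-50307646, minus strand) was at 156 and 158 CPM in shControl and 104 and 91.6 CPM in shYEATS2. PLXND1, a receptor of SEMA3E (ENSG00000004399, chr3:129555214-129606676, minus strand), was at 151 and 152 CPM in shControl and 98.4 and 89.7 CPM in shYEATS2. In both genes the knockdown libraries lay well below the controls, with log2 fold changes of −0.67 (SE 0.07, adjusted p = 7.48e-14) and −0.68 (SE 0.06, adjusted p = 3.35e-14). PLXNB1, the receptor of SEMA4D, fell from 17.2 and 18.2 CPM to 11.5 and 12.4 CPM (log2 fold change −0.58, adjusted p = 1e-05).

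PLXNA3, a partner of neuropilins, fell from 27.6 and 27.9 CPM to 21.1 and 19.3 CPM (log2 fold change −0.45, adjusted p = 5.32e-05), and it shares exonic sequence with LAGE3 on the opposite strand. PLXNA1, another partner of neuropilins, was at 114 and 109 CPM in shControl and 134 and 118 CPM in shYEATS2. Its small rise (log2 fold change 0.18, adjusted p = 0.0194) was lost with DESeq2, without a filter on low counts, and without shControl 1 (0.20), shControl 2 (0.14) or shYEATS2 1 (0.058). PLXNA2 (adjusted p = 0.958), PLXNB3 (adjusted p = 0.226) and PLXNC1 (adjusted p = 0.0663) were not called, but PLXNC1 passed without shYEATS2 1 (−2.95). Summed over the 9 plexins, the level went from 52.5 and 52.5 CPM per kb to 40.5 and 36.3. The neuropilin sum moved the other way, from 33.0 and 34.3 to 45.2 and 47.2 CPM per kb.

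UNC5B and NTN4 both rose. UNC5B, a netrin receptor known in vessels and in the death of unliganded cells (ENSG00000107731, chr10:71212570-71302864, plus strand), was at 9.70 and 11.9 CPM in shControl and 66.6 and 56.8 CPM in shYEATS2. The lower knockdown library was still far above the higher control, a fold of 5.79 (log2 fold change 2.53, SE 0.09, adjusted p = 8.46e-29). This was the largest change among members with a mean of at least 5 CPM. NTN4, a laminin-related netrin of basement membranes (ENSG00000074527, chr12:95657807-95791189, minus strand), was at 39.9 and 40.5 CPM in shControl and 86.3 and 87.7 CPM in shYEATS2 (log2 fold change 1.11, SE 0.07, adjusted p = 5.22e-22). NTN1 had too few counts to be tested.

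The Slits, secreted ligands of Robo receptors, moved apart. SLIT2 (ENSG00000145147, chr4:20251905-20620561, plus strand) was at 8.05 and 7.70 CPM in shControl and 18.0 and 19.6 CPM in shYEATS2 (log2 fold change 1.24, SE 0.11, adjusted p = 9.6e-15). SLIT3 was at 13.2 and 14.1 CPM in shControl and 11.2 and 8.99 CPM in shYEATS2 (log2 fold change −0.39, SE 0.12, adjusted p = 0.0047), a call that was lost with DESeq2 and without shControl 2 (−0.36). Its change was −0.61 without shYEATS2 1. ROBO1, a receptor of both, fell from 57.3 and 56.1 CPM to 41.7 and 46.8 CPM (log2 fold change −0.37, SE 0.08, adjusted p = 3.93e-05).

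Several known ligand and receptor pairs could be read side by side. EFNA1 and EPHA2 were called in opposite directions, as were SLIT2 and ROBO1, SEMA3E and PLXND1, and SEMA3C and NRP1. SEMA4D and PLXNB1 were both lower, and SLIT3 and ROBO1 were both lower. SEMA3A, which was low, and NRP1 were both higher, as were the netrin NTN4 and the netrin receptor UNC5B. The calls of EFNA1 and SLIT3 were lost in some settings, as given above. These pairs were picked after the values were seen and the relation between partners was not tested.

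The genes that act with these receptors inside the cell, or in the same pathways, came from 3 lists of 57 genes in all, of which 48 were tested. They gave 12 lower and 14 higher calls, 25% and 29.2%, against 23.6% and 22.6% of all genes. Without shControl 2 the lower calls were 7. Of the 15 effectors of Eph and ephrin signalling, 2 were lower and 8 were higher (13.3% and 53.3%, against 23.6% and 22.6% of all genes). NGEF, an exchange factor bound by EphA receptors, rose from 5.22 and 4.58 CPM to 8.09 and 6.11 CPM (log2 fold change 0.57, adjusted p = 0.00197), a call lost without shYEATS2 1 (0.30). ACP1, a phosphatase that acts on Eph receptors, rose by 0.48 on the log2 scale (adjusted p = 6.58e-09), while ADAM10, which cleaves ephrins, fell by 0.37 (adjusted p = 4.28e-07). DESeq2 called 1 lower and 3 higher in this list.

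Of the 18 tested effectors and partners of plexins, 7 were lower and 2 were higher. The shares of 38.9% and 11.1% stood against 23.6% and 22.6% of all tested genes. FARP1, an exchange factor that binds class A plexins, fell from 7.98 and 7.36 CPM to 2.45 and 2.38 CPM (log2 fold change −1.66, SE 0.18, adjusted p = 4.33e-12). L1CAM, a partner of NRP1 in axons, fell by 0.44 (adjusted p = 1.46e-06) and DPYSL4, of the collapsin response mediator family, by 0.43 (adjusted p = 0.00148). The list of other Slit, netrin and RGM genes had 3 lower and 4 higher calls among 15 tested (20% and 26.7%). RGMB, a ligand of neogenin, rose from 22.2 and 23.3 CPM to 45.7 and 46.1 CPM (log2 fold change 1.01, SE 0.08, adjusted p = 6.14e-17). SRGAP1, which acts below Robo receptors, rose by 0.87 on the log2 scale (adjusted p = 6.66e-13), and FLRT3, a ligand of UNC5 proteins, fell by 0.35 (adjusted p = 0.00978), a call lost without shControl 2 (−0.30).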

How the data were processed

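RNA-seq libraries of BICR10 cells, 2 shControl and 2 shYEATS2, were made by the authors from polyadenylated RNA with a strand-marking kit and read from both ends. The deposited files hold counts of read pairs per Ensembl gene, without normalization, made by the authors with STAR on GRCh38 and HTSeq. The submitters' processing notes name these tools without versions, the study's list of resources gives a release for HTSeq, and the strand setting is not given in the sources used here. Tallies of read pairs not assigned to a single gene (15.3% to 16.5%) were left out. They comprised pairs on no gene (7.64% to 8.57%), ambiguous pairs (4.31% to 4.61%) and pairs not aligned uniquely (3.25% to 3.53%).

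Genes were kept by filterByExpr, scaled by TMM and tested with edgeR 4.0.16 (robust glmQLFit and glmQLFTest) in R 4.3.3, with Benjamini-Hochberg adjustment over 17058 genes and a threshold of 0.05. Standard errors were taken from the fold change and its F statistic. Levels between genes are CPM per kb of exon (GENCODE 44), and positions are from the same release. The common biological coefficient of variation was 4.95%. With 2 libraries against 2, an exact permutation test (two-sided) reaches 0.333 at the lowest. Deviations of libraries with the same replicate number were not correlated over genes (correlation −0.02). That value does not show whether the libraries were prepared in pairs. The self-test on simulated counts was run with the same code.

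The members and gene lists were chosen with earlier results of these data known. Named genes were the called members with non-overlapping conditions and a mean of at least 5 CPM (25 members), the 8 with the highest level, members on the study's ChIP gene lists, the 3 largest changes per pathway list under the same mean, and YEATS2. Other members were named to account for the whole set, after their values were seen. Alternatives were other scalings, filters, tests (DESeq2 1.42.0, limma 3.58.1), thresholds, thinning to 11334133 counts, a replicate block and each library left out.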

Additional observations from a re-analysis of the deposited data

How the results depend on the processing

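Of the 36 called members, 23 kept their call at the same threshold under every alternative fit that could be run for them (at most 14). In these fits 0 reversed. The stricter thresholds are not among these fits. EPHA5, with 12 fits, and SEMA3D, with 13, are in the 23, and a filter or thinning dropped them from the others. An adjusted p under 0.01 left 16 lower and 11 higher members. A change of at least 2-fold left 8 lower and 8 higher members, and 2 lower and 2 higher of the other pathway genes. For the members, leaving out a library gave 16 to 21 lower and 11 to 15 higher calls, with the lone library assumed to vary like the other condition. DESeq2 gave 14 lower and 10 higher, and 9 higher of the other pathway genes against 14. Library totals alone gave 16 lower and 16 higher members and 6 lower pathway genes against 12. They moved the median of all genes from −0.01 to 0.13 and the calls over all genes to 2567 lower and 5441 higher. Leaving out a library gave 7 to 12 lower pathway genes, the fewest without shControl 2, and 10 to 13 higher. The replicate block gave 21 lower and 15 higher members and changed no call of a member.

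Members without a call changed sign in some settings. Under library totals alone, SEMA3F was 0.016, EPHB4 0.016, EFNA3 0.069 and PLXNA2 0.12 on the log2 scale. PLXNA2 was 0.00092 with upper quartiles, 0.11 with thinned counts and 0.00018 with the replicate block. SEMA4G was −0.076 with DESeq2, −0.28 with limma-voom and −0.088 with the block, and EPHA4 was −0.0035 with no filter. With a library left out, SEMA3F ran from −0.43 to 0.043, SEMA4G from −2.38 to 0.64, EPHA4 from −0.015 to 0.11, EFNA3 from −0.21 to 0.0060 and PLXNA2 from −0.10 to 0.064. The cause of these changes was not tested.

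Low members limit the precision: SEMA3D, EPHA5, EFNA2 and SEMA3G rest on few counts in at least 1 condition. EFNB1, EFNA1, EFNB2, EFNA4, NRP2 and SLIT3 lost their call under DESeq2, as did SEMA3G, SEMA3B, SEMA6B, EPHA6, EFNA2 and PLXNA1. With thinned counts EFNA4 (−0.38), SEMA6D (−1.04), SEMA6B, EPHA6, EFNA1, EFNB1 and NRP2 lost theirs. The change of log2 CPM with a prior count of 0.5 kept the direction of each named member.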
